A study of Homo sapiens with 2 samples.

Results

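Intermediate filament genes and the lamin B receptor gene were followed in K562 cells, a human leukaemia line grown from chronic myeloid disease at the blast crisis stage. The genes were chosen by name and are KRT8, KRT10, KRT18, KRT19, VIM, NES, LMNA, LMNB1, LMNB2 and LBR. They are 10 of 12541 genes measured on the arrays and hold 20 of 54613 human probe sets. They were chosen with results of these arrays known, so their differences are given as a description. The PML4 group holds 1 array of K562 cells infected with a retrovirus that overexpresses PML4, an isoform of the promyelocytic leukaemia protein that builds PML nuclear bodies. The control group holds 1 array of K562 cells with the empty vector pMSCV. Cells of both groups were selected with G418 for 3 weeks and grown in medium with 10% serum at 37 °C. The labels do not say whether the selected cells were kept as a pool or as a clone, and they name no change to the cells' own PML gene. No value has a replicate, so no test was made between the groups, and every difference is one between these 2 arrays.

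Intermediate filaments are the rope-like polymers of the cytoskeleton and of the nuclear lamina. Keratins form filaments only as pairs of a type I and a type II chain and are known mainly from epithelia, while vimentin fills that role in mesenchymal and blood cells. Lamins line the inner face of the nuclear envelope. LMNA gives the A-type lamins, LMNB1 and LMNB2 give the B-type lamins, and LBR, the lamin B receptor, ties the B-type lamina and heterochromatin to the inner nuclear membrane.

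Signals are MAS5 intensities on a linear scale, as the authors deposited them. The floor, 72.4, is the median over the human probe sets of the 2 arrays together, and a probe set counts as measured when it exceeds the floor on at least 1 array. Of the human probe sets 48.1% exceeded the floor on the PML4 array and 51.9% on the control array. The median signal was 64 on the PML4 array and 80.6 on the control array. Of the 20 probe sets of these genes, 17 were measured, each exceeding the floor on the PML4 array and on the control array alike. The other 3, 1 each of KRT19, NES and LMNA, lay under it on both. Differences are log2 PML4 minus log2 control vector. Where a gene has several measured probe sets, the one with the largest mean log2 signal represents it. The only estimate of error is the gap between the differences of probe sets of the same gene, which had a median of 0.29 on the log2 scale over 16239 pairs in 5453 genes. This gap holds no error between cultures. Signals of different probe sets are not comparable with each other, so no order of levels between genes is given.

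As a check of the overexpression, the PML probe set 211013_x_at read 1386.8 on the PML4 array and 216.3 on the control array, 6.41-fold higher. The PML probe sets disagreed, with 5 of 9 measured ones higher on the PML4 array and 4 lower. The probe set 206503_x_at read 156.5 on the PML4 array and 927.2 on the control array, 5.92-fold lower. Which of them can read the PML4 construct was not analysed here, so the check is limited to these values. For GAPDH, read as a measure of RNA integrity, the ratio of the 3′ to the 5′ signal was 1.53 on the PML4 array and 1.55 on the control array. The same ratio for ACTB was larger, 2.80 on the PML4 array and 2.94 on the control array. The erythroid identity of K562 was visible on both arrays: all 8 erythroid marker genes that have an own probe set were measured. Among them were HBE1, the embryonic epsilon-globin, at 24540.1 on the PML4 array and 18103.9 on the control array, and KLF1, an erythroid transcription factor, at 3196.4 on the PML4 array and 3062.8 on the control array. TFRC, the transferrin receptor, read 31653.7 on the PML4 array and 17625.2 on the control array. HBZ, the embryonic zeta-globin, was 3.90-fold higher and EPOR, the erythropoietin receptor, 2.08-fold lower on the PML4 array, though the 4 measured EPOR probe sets ran from -1.06 to 0.81 on the log2 scale. EPOR fell short of 2-fold under 4 alternatives, at -0.71 when the floor was the 75th percentile, -0.998 with a pseudocount, -0.996 after quantile normalization and -0.21 as the mean of its probe sets.

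**Figure D1:**
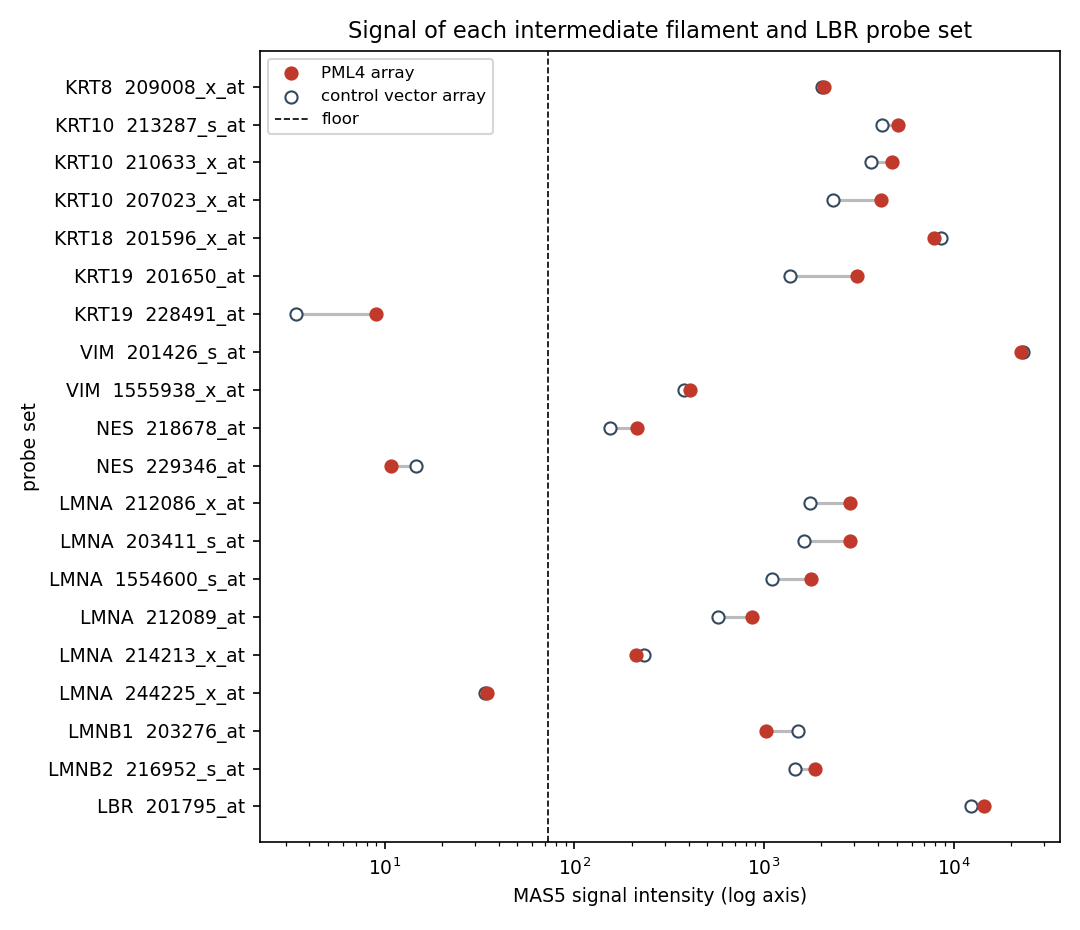
MAS5 signal intensity (log axis) of each of the 20 probe sets, with filled points for the PML4 array, open points for the control vector array and a dashed line at the floor of 72.4. KRT19 201650_at has the widest gap among probe sets above the floor, and 4 of the LMNA probe sets sit further right on the PML4 array.

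KRT19 was the single gene of the 10 with at least a 2-fold difference. Across all genes 1.23% were at least 2-fold higher on the PML4 array and 3.21% at least 2-fold lower. On the PML4 array 7 of the 10 were higher and 3 lower, and none was at least 2-fold lower. Of all measured genes 44.7% had a higher signal, and of the genes with a mean signal from the 75th percentile up, to which 7 of the 10 belong, 56.6% did. The median over the 10 was 0.25 on the log2 scale, against -0.05 over all measured genes. At a 1.5-fold limit LMNA joined KRT19 as higher and no gene was lower, where 5.7% of all genes were at least 1.5-fold higher and 11.8% at least 1.5-fold lower. The differences of 5 genes were smaller than the median gap between probe sets: KRT8, KRT10, KRT18, VIM and LBR. Those of KRT19, LMNA, LMNB1, NES and LMNB2 were larger. For KRT10 this holds only for the probe set that stands for the gene, as the mean over its probe sets was 0.50. The balance of the background depended on scaling: 154 genes were at least 2-fold higher and 402 lower as deposited, against 196 higher and 281 lower after quantile normalization.

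**Figure D2:**
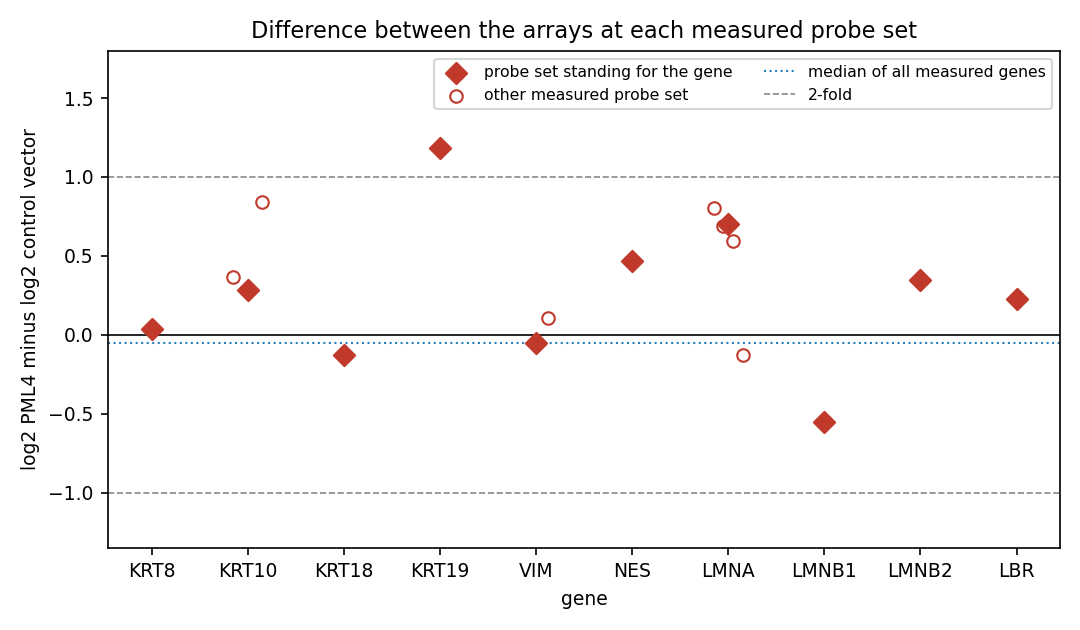
Log2 difference, PML4 minus control vector, at each of the 17 measured probe sets, grouped by gene. Diamonds mark the probe set that stands for the gene, open circles the others, dashed lines a 2-fold difference and the dotted line the median of all measured genes at -0.05; KRT19 lies above the upper line and LMNB1 is the lowest point.

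The simple epithelial keratins KRT8, KRT18 and KRT19 did not differ alike. KRT8, the type II chain, and KRT18, its usual type I partner, are neighbours on chromosome 12. KRT8 read 2066.1 on the PML4 array and 2010.8 on the control array, a log2 difference of 0.04. KRT18 read 7878.2 on the PML4 array and 8594.7 on the control array, a log2 difference of -0.13. The differences of the pair were thus 0.16 apart, less than the median gap between probe sets of 1 gene. Each of them is read by 1 probe set, ending in _x_at, a name that marks probes which can match other transcripts. RefSeq lists 52 pseudogenes named after KRT8 and 68 named after KRT18, so part of either signal may come from other loci.

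KRT19, a type I keratin that lacks the tail domain of its relatives, lies in the keratin cluster on chromosome 17. Its probe set 201650_at read 3098.8 on the PML4 array and 1362.8 on the control array. That is 2.27-fold higher, or 1.19 on the log2 scale, and places KRT19 at the 99.4th percentile of differences over all measured genes. Among the 3136 genes with a mean signal from the 75th percentile up, 0.51% were at least 2-fold higher. The KRT19 difference exceeded that of KRT18 by 1.31 and that of KRT8 by 1.15 on the log2 scale. Its other probe set, 228491_at, read 9.0 on the PML4 array and 3.4 on the control array, both under the floor, so 1 probe set carries the result. RefSeq lists 5 pseudogenes named after KRT19.

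KRT10 is the type I keratin of the suprabasal epidermis, where KRT1 is its type II partner. All 3 of its probe sets had a higher signal on the PML4 array, by unequal amounts. The probe set 213287_s_at, which stands for the gene, read 5075.2 on the PML4 array and 4176.5 on the control array, a log2 difference of 0.28. The probe set 210633_x_at read 4708.4 on the PML4 array and 3648.4 on the control array, a difference of 0.37. The probe set 207023_x_at read 4132.4 on the PML4 array and 2309.2 on the control array, a difference of 0.84. The direction was shared, but the sizes spanned 0.56, wider than the median gap, so the size for KRT10 depends on the probe set. KRT1 was under the floor on both arrays, at 46.7 on the PML4 array and 14.7 on the control array.

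The sequence before the KRT10 start is shown because KRT10 is the type I keratin whose probe sets were all higher and for which the RefSeq promoter table (GRCh38.p14) holds a window. It is the 250 bases upstream of the start, chr17:40822615-40822864, minus strand, 5′ to 3′. Capitals mark matches, on either strand, to 7 motifs: TATAAA, the letters of the TATA box; GGGCGG, the GC box; CCAAT, the box of that name; AGATAA, bound by GATA factors; CCACCC, the box bound by KLF factors; CACGTG, an E-box; and TGACTCA, an AP-1 site.
KRT10: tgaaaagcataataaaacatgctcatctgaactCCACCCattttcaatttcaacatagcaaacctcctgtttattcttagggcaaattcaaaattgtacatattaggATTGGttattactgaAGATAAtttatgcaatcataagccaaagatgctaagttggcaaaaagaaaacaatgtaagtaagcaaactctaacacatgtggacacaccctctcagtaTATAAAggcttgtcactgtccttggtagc
The window holds a TATA box starting 29 bases before the start, a GATA site starting 128 bases before it, a KLF box and, on the other strand, a CCAAT box. Of 35116 windows of this length in the table, 10.7% hold TATAAA, 9.17% AGATAA, 31.3% CCACCC and 32% CCAAT. Of the 10 genes 8 have windows in the table, 11 in all, and KRT10 is the only one of the 8 with TATAAA. These matches describe the letters and do not show binding.

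Most of the other keratin genes lay under the floor on both arrays. Of 51 other keratin genes listed, 40 could be read by an own probe set and 6 were measured. KRT7, a type II keratin of simple epithelia, was the only one of the 6 above the floor on both arrays, at 92.7 on the PML4 array and 126.0 on the control array, and its other 3 probe sets were under the floor. KRT32, a hair keratin, was above the floor on the PML4 array alone, at 89.2 against 23.0 on the control array, and KRT75 on the control array alone, at 44.1 on the PML4 array and 92.0 on the control array. None of the 6 differed by 2-fold, 2 had a higher and 4 a lower signal, and their median was -0.05 with signals raised to the floor. Except for KRT7, none was above the floor on both arrays. The filter thus fixed the direction of each of those genes, and the floor limited the size of its difference. The list's median, over the genes measured under each setting, was -0.41 with a pseudocount and 0.07 after quantile normalization. It was -0.37 when the floor was the 25th percentile, where further dim keratins enter. With KRT10 and KRT19 included, 28 listed keratins lie on chromosome 17, of which 23 could be read by an own probe set and only those 2 exceeded the floor on both arrays. None of the 6 protein-coding genes nearest to KRT19 in RefSeq order, and none of the 6 nearest to KRT10, was measured; all are keratins. The genes directly beside KRT19 have own probe sets, but these were under the floor on both arrays and gave no difference. KRT10 is the only other keratin on chromosome 17 above the floor on both arrays.

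VIM encodes vimentin, the type III filament of blood and mesenchymal cells. The probe set 201426_s_at read 22553.1 on the PML4 array and 23337.0 on the control array, a log2 difference of -0.05. The probe set 1555938_x_at read 406.7 on the PML4 array and 378.2 on the control array, a difference of 0.10. The probe sets thus lay on opposite sides of 0, within 0.15 of each other, and both were inside the median gap. NES encodes nestin, a large filament protein of neural progenitors that assembles together with vimentin. Its probe set 218678_at read 213.1 on the PML4 array and 154.4 on the control array, a log2 difference of 0.46 or 1.38-fold higher, at a signal near the floor. The other NES probe set, 229346_at, read 10.8 on the PML4 array and 14.6 on the control array and was not measured.

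LMNA, which gives lamins A and C by alternative splicing, was the second largest difference among the 10 genes and the best covered. The probe set 212086_x_at, which stands for the gene, read 2828.8 on the PML4 array and 1738.0 on the control array, 1.63-fold higher. The probe set 203411_s_at read 2830.0 on the PML4 array and 1620.9 on the control array, 74.6% higher. The probe set 1554600_s_at read 1768.1 on the PML4 array and 1095.4 on the control array, 1.61-fold higher. These 3, together with 212089_at, gave differences between 0.59 and 0.80 on the log2 scale. That last probe set read 860.1 on the PML4 array and 570.8 on the control array. In contrast 214213_x_at read 211.5 on the PML4 array and 231.3 on the control array, a difference of -0.13. The probe set 244225_x_at was under the floor, at 34.4 on the PML4 array and 33.9 on the control array. So 4 of 5 measured LMNA probe sets were at least 1.5-fold higher, as were 6.27% of all measured probe sets, and the fifth was lower by less than the median gap. The difference of the gene, 0.70, lay at the 96.3rd percentile over all measured genes. Which probe sets read lamin A, lamin C or both was not analysed here.

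The B-type lamins differed in opposite directions. LMNB1, the lamin B1 gene, was read by 203276_at at 1028.1 on the PML4 array and 1508.1 on the control array. That is 1.47-fold lower, or -0.55 on the log2 scale, at the 13th percentile over all measured genes. LMNB2, the lamin B2 gene, was read by 216952_s_at at 1854.4 on the PML4 array and 1456.5 on the control array, 1.27-fold higher or 0.35 on the log2 scale. Each has 1 probe set, so neither direction can be checked within the array. In contrasts chosen after the values were seen, the difference of LMNA exceeded that of LMNB1 by 1.26 and that of LMNB2 by 0.35 on the log2 scale, and the difference of LMNB2 exceeded that of LMNB1 by 0.90. In RNA from a whole culture, fewer cells that express a gene and less RNA per cell cannot be told apart.

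The upstream sequences of the B-type lamin genes are shown because these genes differed in opposite directions. Each is 250 bases before a RefSeq start (GRCh38.p14), 5′ to 3′, with the same motifs in capitals. LMNB1 lies at chr5:126776886-126777135, plus strand, and LMNB2 at chr19:2456960-2457209, minus strand. For LMNB1 the table holds 2 windows, and the one shown lies farther along the gene. The other has a GC content of 48.4%, 10 CpG pairs and none of the 7 motifs, and which start K562 cells use was not analysed here.
LMNB1: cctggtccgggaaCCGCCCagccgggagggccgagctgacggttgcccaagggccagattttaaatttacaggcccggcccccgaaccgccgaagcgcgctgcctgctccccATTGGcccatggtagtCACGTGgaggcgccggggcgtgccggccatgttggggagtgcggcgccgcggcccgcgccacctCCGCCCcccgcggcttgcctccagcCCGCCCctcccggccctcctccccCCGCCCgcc
LMNB2: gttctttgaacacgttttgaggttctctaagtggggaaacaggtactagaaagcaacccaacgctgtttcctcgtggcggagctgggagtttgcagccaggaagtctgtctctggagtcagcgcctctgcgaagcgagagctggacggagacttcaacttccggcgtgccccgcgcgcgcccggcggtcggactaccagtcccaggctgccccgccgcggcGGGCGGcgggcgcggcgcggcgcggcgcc
The LMNB1 window shown has a GC content of 75.6% with 29 CpG pairs, and the LMNB2 window 66.4% with 30. The median GC content over all windows was 58.0%. The LMNB1 window shown holds 4 GC boxes, a CCAAT box and an E-box, and the LMNB2 window holds 1 GC box and none of the other 6 motifs. GGGCGG occurs in 42.6% of all windows and CACGTG in 6.34%. Neither window holds TATAAA.

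LBR, which binds B-type lamins and the heterochromatin protein HP1 and is also a sterol reductase, was read by 1 probe set. The probe set 201795_at read 14509.0 on the PML4 array and 12411.7 on the control array, 1.17-fold higher or 0.23 on the log2 scale, inside the median gap. Of 8 measured genes of neighbouring sterol steps, 5 had a higher and 3 a lower signal, none by 2-fold, with a median of 0.25. At least 1.5-fold higher were 3 of the 8, LSS, EBP and DHCR7, and none was 1.5-fold lower, where 5.7% of all genes were 1.5-fold higher. LSS, lanosterol synthase, read 2001.6 on the PML4 array and 1270.6 on the control array. Its 3 measured probe sets ran from 0.05 to 0.66, and its difference was 0.26 as their mean, short of 1.5-fold. MSMO1, a sterol methyl oxidase, read 1468.0 on the PML4 array and 1168.5 on the control array, and HSD17B7 read 1499.5 on the PML4 array and 1687.4 on the control array. DHCR7, which reduces the last intermediate to cholesterol, and EBP, a sterol isomerase, were also named after their values were seen. DHCR7 read 1025.6 on the PML4 array and 521.6 on the control array, and EBP read 1708.0 on the PML4 array and 916.0 on the control array. TM7SF2, which catalyses the same reduction as LBR and was likewise chosen, read 212.0 on the PML4 array and 281.7 on the control array.

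**Figure D3:**
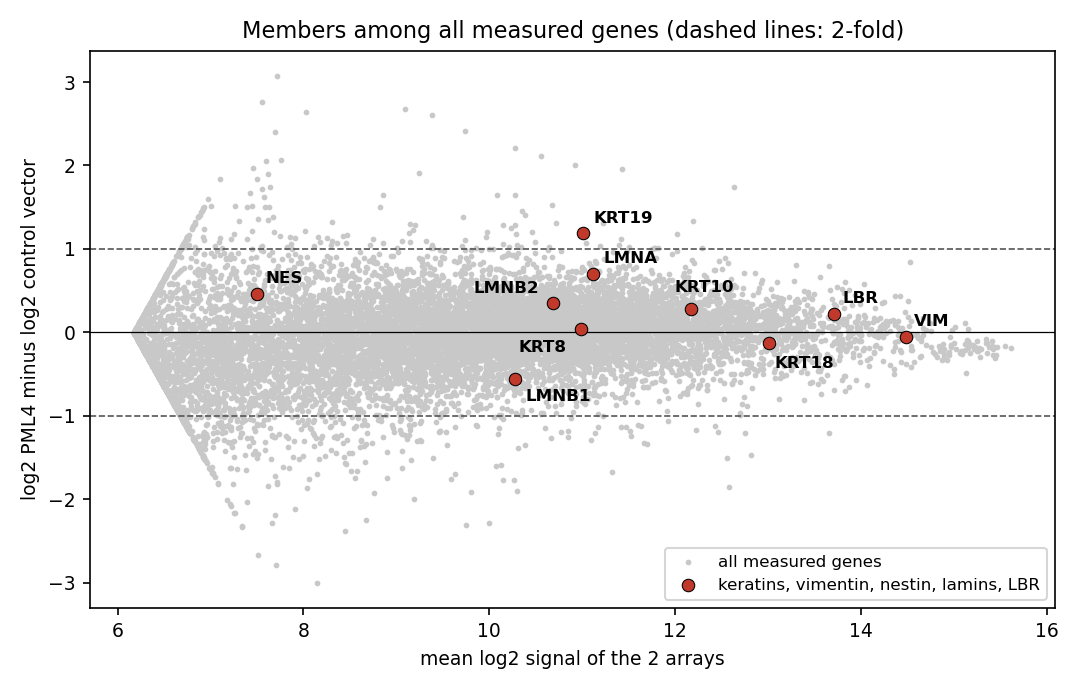
Log2 difference, PML4 minus control vector, against the mean log2 signal of the arrays for the 12541 measured genes (grey), with the 10 genes in red and dashed lines at a 2-fold difference. KRT19 lies above the upper line, LMNA below it at 0.70, and VIM near 0 at -0.05.

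Partners of the lamins at the nuclear envelope held no 2-fold difference. Of 23 genes listed, 21 were measured, 13 with a higher and 8 with a lower signal on the PML4 array. Their median was 0.17, against -0.05 over all genes and 0.05 over those 3136 genes of high signal, and none of the 21 was 1.5-fold higher while 4 were 1.5-fold lower, where 5.7% of all genes were at least 1.5-fold higher and 11.8% lower. Of those 4, SYNE3 and SYNE4 were under the floor on the PML4 array and just above it on the control array. TMPO, the lamina-associated polypeptide LAP2, read 9306.0 on the PML4 array and 7728.1 on the control array, and all 4 of its measured probe sets were higher, by 0.21 to 0.60 on the log2 scale. CBX3, an HP1 protein, read 20021.6 on the PML4 array and 17760.2 on the control array. NUP153, a nuclear pore protein at the nuclear basket, read 8634.7 on the PML4 array and 9792.9 on the control array, and its 3 probe sets ran from -0.54 to 0.74. Genes chosen after their values were seen were EMD, emerin, at 635.3 on the PML4 array and 445.7 on the control array, and SUN1, which links the lamina to the cytoskeleton. SUN1 read 4202.6 on the PML4 array and 6479.3 on the control array, but its 4 probe sets ran from -1.11 to 0.56. SYNE1 and SYNE2, the nesprins that bind SUN proteins, were under the floor on both arrays.

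All 5 genes that prenylate and cleave lamin precursors were measured, and none differed by 2-fold. FNTA, a farnesyltransferase subunit, read 10526.1 on the PML4 array and 10845.7 on the control array. ZMPSTE24, the protease that matures prelamin A, read 4218.6 on the PML4 array and 2980.1 on the control array, and ICMT, the carboxyl methyltransferase, read 1621.1 on the PML4 array and 1245.9 on the control array. Higher signals were found for 2 and lower ones for 3, with a median of -0.04. The list's median was 0.38 when the floor was the 75th percentile, over the genes then measured. It was 0.0057 after median centring and -0.22 as the mean of probe sets.

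Among other cytoplasmic filament genes 7 of 11 were measured, 4 higher and 3 lower, with a median of 0.26. SYNC, whose value is that median, was above the floor on the PML4 array alone, and INA and BFSP1 on the control array alone. The direction of these genes, named after their values were seen, was fixed by the filter. Over the genes measured under each setting, the list's median was -0.13 without IDs ending in _x_at or _s_at. It was -0.0039 when the floor was the 25th percentile. DES, the muscle filament desmin, read 452.7 on the PML4 array and 219.7 on the control array, 2.06-fold higher, and was the only one past 2-fold. Its other probe set was under the floor, and with a pseudocount of 32 in place of the floor its log2 difference was 0.95, short of 2-fold. NEFH, the heavy neurofilament chain, read 407.5 on the PML4 array and 287.5 on the control array, and SYNM, synemin, which joins desmin and vimentin filaments, read 288.6 on the PML4 array and 240.4 on the control array. Of 14 genes for filament linkers and desmosome plaque proteins 9 were measured, 5 higher and 4 lower, none by 2-fold, with a median of 0.02. MACF1, a crosslinker of actin and microtubules, read 7198.1 on the PML4 array and 7049.7 on the control array. JUP, plakoglobin, read 2605.8 on the PML4 array and 2045.5 on the control array, and PKP4, a plakophilin relative, read 1879.4 on the PML4 array and 1703.7 on the control array. DSP, desmoplakin, which anchors keratins at desmosomes, was under the floor on both arrays.

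**Figure D4:**
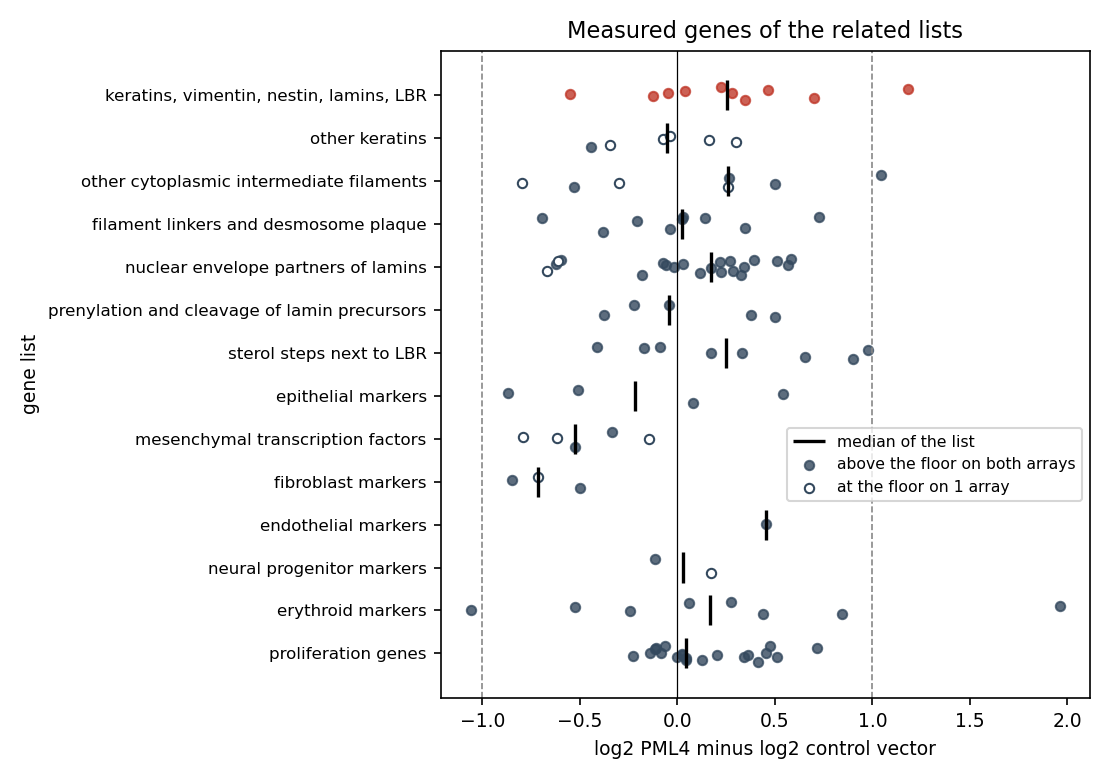
Log2 difference, PML4 minus control vector, of each measured gene in the 10 keratin, vimentin, nestin, lamin and LBR genes (red) and in 13 related lists (dark), with a bar at each list's median and dashed lines at 2-fold. Open points have a signal at the floor on 1 array; the nuclear envelope list stays between the dashed lines.

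Markers of cell types known for these filaments were set beside them, and their part in the differences was not tested. Of 11 epithelial markers with a probe set, 4 were measured, 2 higher and 2 lower, with a median of -0.22 and a summed signal of 7454.7 on the PML4 array and 7012.7 on the control array. The sum is led by EPCAM. The list's median has no settled direction and was 0.02 as the mean of probe sets. Over the genes measured under each setting, it was 0.31 when the floor was the 75th percentile. Without IDs ending in _x_at or _s_at it was -0.69. EPCAM, an epithelial adhesion protein, read 6203.1 on the PML4 array and 5870.4 on the control array. MUC1 read 951.0 on the PML4 array and 653.8 on the control array, and CLDN7, a claudin, read 149.9 on the PML4 array and 273.7 on the control array. CDH1, E-cadherin, was under the floor in both of its probe sets. The 5 measured mesenchymal transcription factors had a lower signal as deposited, none by 2-fold, with a median of -0.52. Across all genes 44.7% had a higher signal. SNAI1, TWIST1 and PRRX1 were under the floor on the PML4 array. They counted as measured through the control array alone, so their direction was fixed by the filter. TWIST1 and PRRX1 are named after their values were seen. The summed signal of the list was 2173.2 on the PML4 array and 3180.8 on the control array. That sum includes signals under the floor and is led by the probe set that stands for ZEB2. As signals of different probe sets are not comparable, it is no measure of the list as a whole. ZEB2 read 1537.4 on the PML4 array and 2212.1 on the control array, though its 3 probe sets ran from -0.52 to 0.87 and its difference was 0.30 as their mean and 0.57 without IDs ending in _x_at or _s_at. ZEB1 read 517.6 on the PML4 array and 652.4 on the control array, and SNAI1 read 28.9 on the PML4 array, under the floor, and 125.1 on the control array.

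Of 10 fibroblast markers 3 were measured, all lower, with a median of -0.71 and a summed signal of 463.1 on the PML4 array and 742.1 on the control array. COL1A1 read 278.6 on the PML4 array and 394.2 on the control array, COL6A3 read 127.4 on the PML4 array and 229.2 on the control array, and DCN read 57.1 on the PML4 array, under the floor, and 118.7 on the control array, while COL1A2 and COL3A1 were under the floor on both arrays. Of 6 endothelial markers PECAM1, also a blood cell gene, was the only one measured, at 2073.0 on the PML4 array and 1512.1 on the control array. Of 6 neural progenitor markers 2 were measured, with a median of 0.03: PAX6 at 866.5 on the PML4 array and 938.0 on the control array, and SOX2 at 81.7 on the PML4 array and 50.4, under the floor, on the control array. The direction of SOX2 was likewise fixed by the filter. The erythroid list had 5 higher and 3 lower signals and a median of 0.17. Proliferation genes are set beside LMNB1, which was lower on the PML4 array: of 20, 13 had a higher and 7 a lower signal, none by 2-fold, with a median of 0.05. Of all measured genes 44.7% had a higher signal. Of the 3136 genes of high signal 56.6% did, with a median of 0.05. Among the proliferation genes CDK1, the mitotic kinase that phosphorylates lamins, read 14427.9 on the PML4 array and 13196.7 on the control array. TYMS read 19436.1 on the PML4 array and 18813.2 on the control array, and PCNA, the replication clamp, read 15356.2 on the PML4 array and 14876.6 on the control array.

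Of the 6 protein-coding genes nearest to the lamin gene LMNA in RefSeq order 4 were measured, with log2 differences from -0.36 to 0.53. Of the 6 nearest to LMNB1 2 were measured, at -0.08 and -0.06. Of the 6 nearest to LMNB2 4 were measured, from -1.05 to 0.46.

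**Figure D5:**
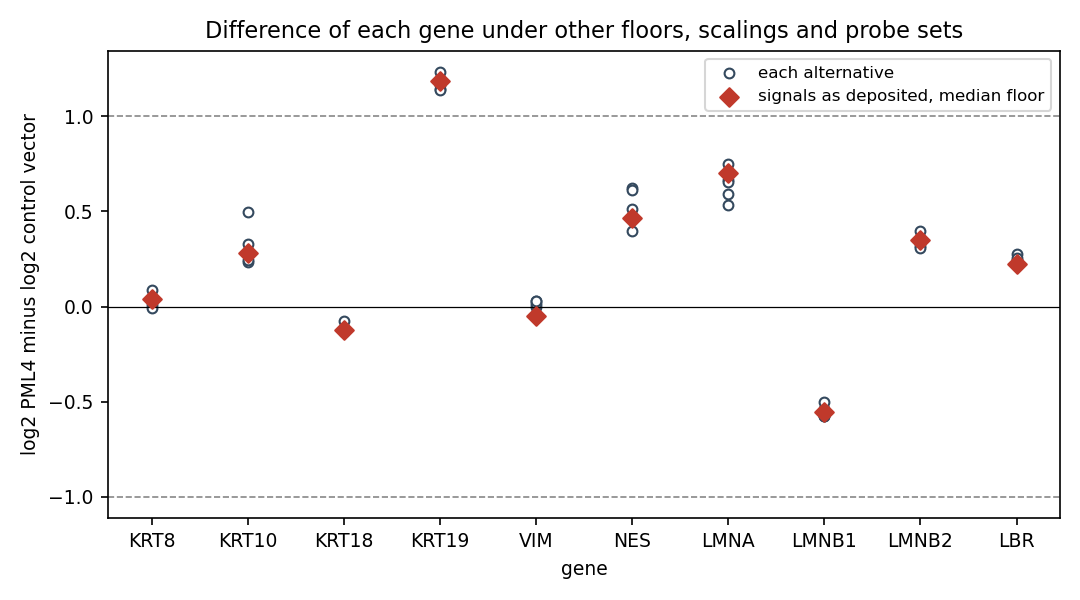
Log2 difference of each of the 10 genes as deposited with the median floor (diamonds) and under each alternative floor, scaling and choice of probe sets (open circles), with dashed lines at 2-fold. KRT19 stays above the upper line throughout, between 1.14 and 1.23, and VIM and KRT8 cross 0.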

How the data were processed

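Total RNA of 2 K562 cultures, from 6 µg each, was hybridised to Affymetrix arrays. The authors deposited MAS5 signal intensities, and the submitters' processing notes name MAS5 and no version. After trimming 2% of probe sets at each end, the deposited intensities averaged 500.1 on the PML4 array and 500.0 on the control array. The labels used here do not state the settings of MAS5 or a scaling target. GEO's array annotation gave 1 gene for 41097 probe sets, several for 1801 and none for 11721 human ones, and genes were named only from those with 1 gene.

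Computed here, with Python 3.11.15 and pandas 2.3.3: values below the floor were set to the floor, log2 was taken, and a gene took its measured probe set of highest mean log2 signal. A 2-fold difference was the limit for naming a gene as different. The steps were tested on simulated data with shifts planted only in genes well above the floor, so the recovery of shifts in dim genes was not tested. With 1 array per group no p-value, standard error or list test was computed, and the number of arrays limits the precision. The genes and lists were chosen with earlier results of these data known. Genes named are the 10, PML, and of each list the genes past 2-fold (at most 4) and the 3 of highest mean signal; others are described as chosen after their values were seen, or are defining markers under the floor. Alternatives were other floors, a pseudocount of 32, median centring, loess centring (span 0.4), quantile normalization, the mean of probe sets, omission of IDs that end in _x_at or _s_at, and calls at 1.5-fold and 3-fold.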

Additional observations from a re-analysis of the deposited data

How the results depend on the processing

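No paired analysis was possible because each group holds 1 array. KRT19 was the single gene of the 10 past 2-fold under all 8 alternative floors, scalings and probe set choices. LMNA ran from 0.53 to 0.75 and LMNB1 from -0.58 to -0.50 on the log2 scale over the same 8, with no change of direction. VIM reached 0.03 and KRT8 reached -0.0053, so neither has a settled direction. DES was at 0.95 with a pseudocount in place of the floor and had no value at the highest floor or without IDs ending in _s_at; under the other 5 alternatives it was 1.04 to 1.14. PML was 0.33 as the mean of its probe sets and 0.23 without those endings. Omitting IDs that end in _x_at or _s_at left no value for KRT8, KRT10, KRT18, VIM and LMNB2, and the floor at the 75th percentile left none for NES. Calls at 1.5-fold gave 2 of the 10 genes higher, with 715 higher and 1484 lower over all genes; calls at 3-fold gave 0 of the 10 higher, with 27 higher and 59 lower over all genes. With the floor at the 25th percentile 667 genes were higher and 2000 lower, and at the 75th 50 were higher and 63 lower. Scaling also moved the split over all genes, with 182 higher and 353 lower after median centring and 188 higher and 310 lower after loess centring. The statements that a list held no 2-fold difference depend on the floor: at the 25th percentile, where dim probe sets enter, 14 other keratin genes, 3 mesenchymal transcription factors, 2 fibroblast markers and 1 gene each of the nuclear envelope, filament linker and neural progenitor lists passed 2-fold, and 1 sterol gene did after median centring. With a pseudocount 2 other keratins and 1 mesenchymal transcription factor passed it.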
